A study of Mus musculus with 120 samples.

Results

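The transcripts described here encode 9 T cell checkpoint and costimulatory molecules: the costimulatory receptors *Cd28* and *Icos*, the inhibitory receptors *Ctla4*, *Pdcd1*, *Tigit*, *Lag3* and *Havcr2*, and the ligands *Cd274* and *Pdcd1lg2*. They were chosen by gene name from the 55487 genes that both deposited count tables share, and each of the 9 had 1 entry in each table. Bulk RNA sequencing had been performed on 120 biopsies of the immunological niche (IN) that forms in porous polymer scaffolds under the skin of female mice. NOD/ShiLtJ mice develop autoimmune diabetes spontaneously, and those that became hyperglycemic are called progressors (58 biopsies of 10 mice) and those that did not are called nonprogressors (39 biopsies). NOR/LtJ mice, a related strain that does not develop diabetes, were the controls (23 biopsies of 5 mice). Every group was biopsied at 6 weeks of age. Later biopsies sequenced from NOR mice and from the 4 nonprogressors of batch 1 were of 10, 14, 18 and 22 weeks, those from 6 nonprogressors of batch 2 were of 14 weeks alone, and those from progressors preceded onset by 7, 5, 3 and 1 weeks (−7, −5, −3 and −1) or were taken at onset. All animals, controls included, carried scaffolds, and the labels name no drug, transgene or deletion in any group. Progressors were older at each later biopsy than at 6 weeks, so age and the approach of onset cannot be told apart within them. In every group, later biopsies also followed more of the weekly removal and replacement surgeries that the paper describes. The labels by age or onset do not say how long each scaffold had been in place. Comparisons against 6 weeks therefore cannot tell age from these factors.

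A T cell that meets its antigen needs a further signal from CD28, and ICOS takes over part of this role once the cell is activated. CTLA4 competes with CD28 for the same ligands, CD80 and CD86, while PD-1 (*Pdcd1*) is engaged by PD-L1 (*Cd274*) and PD-L2 (*Pdcd1lg2*), and both brake the response. TIGIT, LAG3 and TIM-3 (*Havcr2*) are further brakes, TIM-3 and PD-L1 being made by myeloid cells as well as T cells. In NOD mice, blockade of CTLA4 or of the PD-1 pathway is known to hasten diabetes.

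Values are given as CPM, the counts of a gene scaled to the size of the library, after TMM scaling (a correction for library composition), and the total count per biopsy ran from 4722396 to 56185434 in sequencing batch 1 (74 biopsies) and from 29029239 to 43880986 in batch 2 (46 biopsies). All NOR biopsies were in batch 1 and all −7 biopsies in batch 2. At 6 weeks the batches differed at 61.8% of the 19316 genes tested (30.2% lower in batch 2), and the 3 adipocyte markers and 4 skeletal muscle markers were lower in batch 2, with median log2 fold changes of −5.32 and −5.90. Of the 8 members tested there, *Lag3* alone differed, with a log2 fold change of −1.41 ± 0.17 (SE, adjusted p = 4.66e-07, edgeR's quasi-likelihood test with Benjamini-Hochberg adjustment) in batch 2. Levels are therefore described within batches. In 1 NOR biopsy, that of mouse 5 at 18 weeks, 85.7% of the counts fell on 1 ribosomal RNA gene.

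The members form 1 cluster each on chromosomes 1 and 19 and lie singly elsewhere (GRCm38, GENCODE M21). *Cd28* (chr1:60716800-60773359), *Ctla4* (chr1:60887000-60915832) and *Icos* (chr1:60977927-61000320) sit side by side on the plus strand within 283.5 kb. *Cd274* (chr19:29367455-29388095) and *Pdcd1lg2* (chr19:29410919-29471161) are neighbours within 103.7 kb, and *Lag3* (chr6:124904361-124911705) lies beside *Cd4* within 47.0 kb, with no other member nearby. *Pdcd1* (chr1:94038305-94052553), *Tigit* (chr16:43648867-43664146) and *Havcr2* (chr11:46454935-46481255) also lie apart. *Cd274* shares 511 exon bases with an antisense gene, and since the strand setting of the counting is not given in the sources used here, reads of both genes cannot be told apart. The 250 bases before the RefSeq transcription start (GRCm38.p6) were given for 6 of the 9 genes. *Ctla4* and *Pdcd1lg2* were the members with the largest rises in progressors, and *Havcr2* separated the strains in batch 1. The bases of these genes are given with matches to motifs in capitals.

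Ctla4: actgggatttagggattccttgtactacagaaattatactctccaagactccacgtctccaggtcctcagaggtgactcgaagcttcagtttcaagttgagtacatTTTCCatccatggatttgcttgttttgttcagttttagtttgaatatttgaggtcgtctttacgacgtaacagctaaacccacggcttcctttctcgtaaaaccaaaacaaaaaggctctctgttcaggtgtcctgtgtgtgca
Pdcd1lg2: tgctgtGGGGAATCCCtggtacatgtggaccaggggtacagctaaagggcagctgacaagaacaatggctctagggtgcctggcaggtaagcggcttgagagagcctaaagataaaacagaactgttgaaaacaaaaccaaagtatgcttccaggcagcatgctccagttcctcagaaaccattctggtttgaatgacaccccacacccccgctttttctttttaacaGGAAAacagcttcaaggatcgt
Havcr2: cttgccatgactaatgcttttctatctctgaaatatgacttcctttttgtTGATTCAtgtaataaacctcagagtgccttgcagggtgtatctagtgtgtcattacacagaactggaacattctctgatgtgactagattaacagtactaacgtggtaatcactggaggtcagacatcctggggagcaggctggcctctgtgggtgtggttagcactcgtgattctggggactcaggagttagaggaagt

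These windows lie on the plus strand at chr1:60908775-60909024, chr19:29410669-29410918 and chr11:46454681-46454930. The RefSeq start of *Ctla4* lies downstream of its GENCODE start, so its window falls inside the gene coordinates given above. The windows of *Pdcd1lg2* and *Havcr2* end before theirs. The motifs searched on both strands were the NFAT core GGAAA, the AP-1 site TGANTCA, the STAT site TTCNNNGAA, the IRF site and the NF-kB consensus. Counting back from −1, the base before the start, *Ctla4* held the NFAT core on the minus strand from −144 to −140. *Pdcd1lg2* held an NF-kB match from −244 to −235, which reads as the motif on both strands, and an NFAT core from −22 to −18, and *Havcr2* held an AP-1 match from −200 to −194. Among 32851 promoters of the same length, 55.6% held GGAAA, 7.25% the NF-kB consensus and 6.75% the AP-1 site. The matches describe these letters alone.

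Per kilobase of exon, *Cd274* and *Havcr2*, which myeloid cells also express, stood far above the other 7. Median levels in batch 1 were 19.98 CPM per kb for *Cd274* and 14.0 for *Havcr2*, against 1.06 for *Lag3*, 0.604 for *Pdcd1lg2*, 0.351 for *Tigit*, 0.278 for *Cd28*, 0.244 for *Icos*, 0.241 for *Pdcd1* and 0.176 for *Ctla4*. The same 2 genes led in batch 2, with 14.6 and 12.0 CPM per kb, and the other 7 lay between 0.237 and 0.686. The low members rest on few reads: *Ctla4* had under 10 counts in 32 of 74 biopsies of batch 1 and 12 of 46 of batch 2, *Pdcd1* in 32 and 3, and *Tigit* in 37 and 12. In the plot of every dated biopsy, the median of *Pdcd1lg2* at the last time exceeded that at 6 weeks in each of the 3 groups, while *Havcr2* had its lowest medians in NOR mice and in batch 2.

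**Figure D1:**
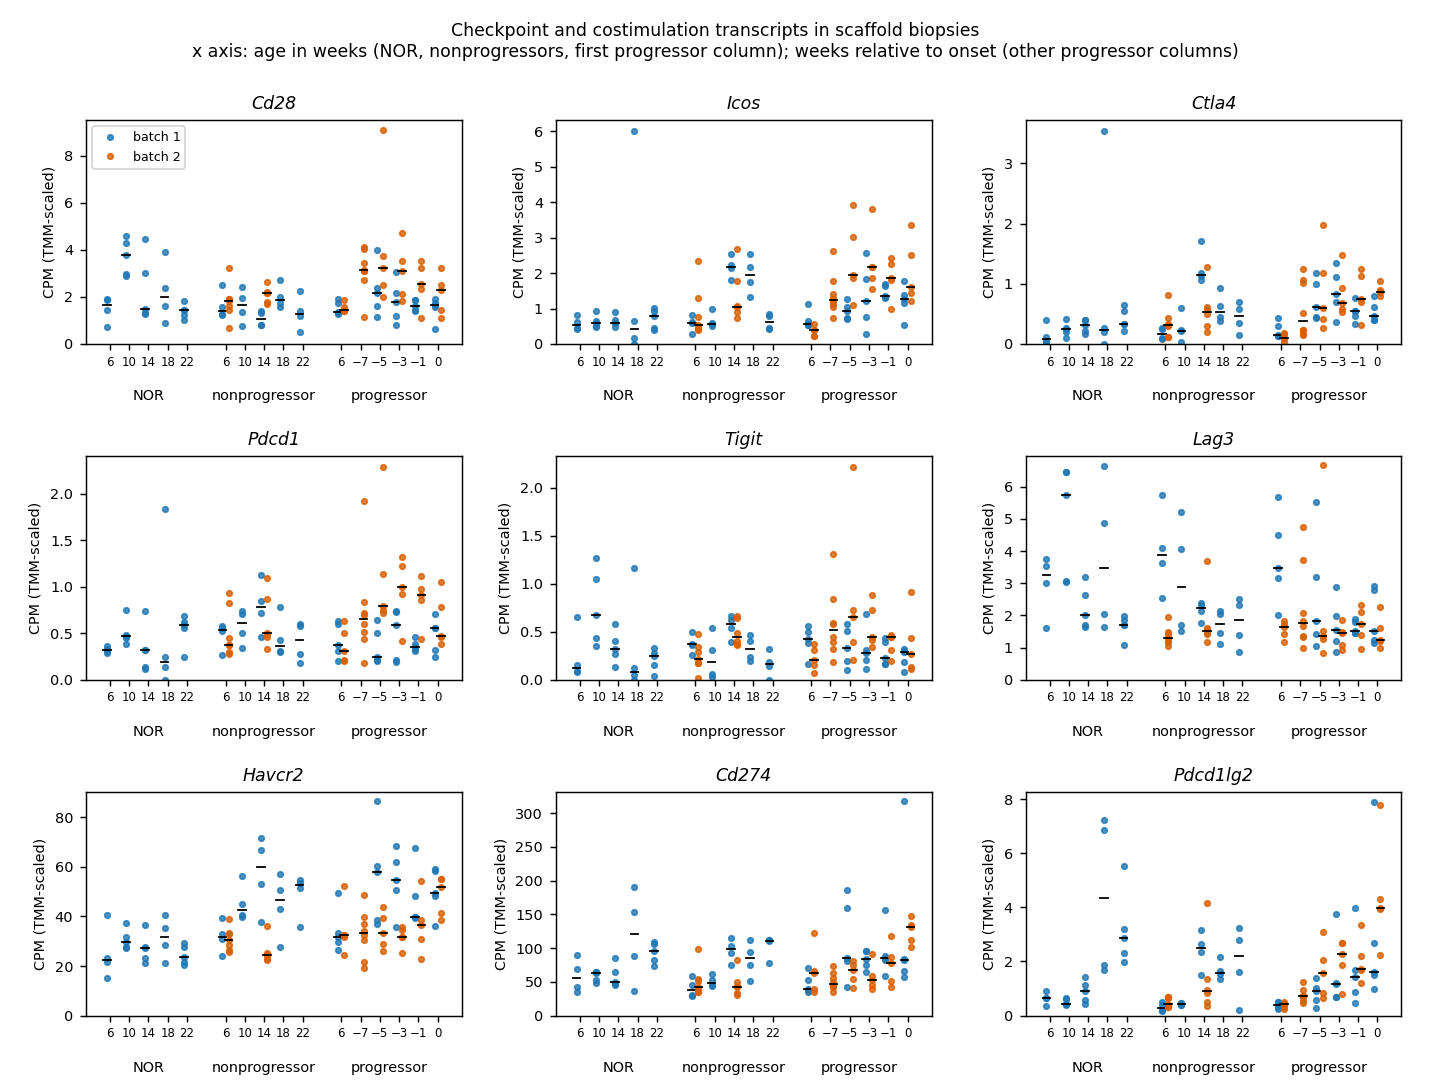
CPM of the 9 genes (y axis, linear, from 0) in each dated biopsy, by group and by age or time from onset (x axis); points are biopsies coloured by sequencing batch and black lines are medians. NOR mice gave *Havcr2* values of at most 40.6 CPM, and the highest *Cd274* value, 317 CPM, belonged to a progressor at onset.

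The strains were compared in batch 1 with the biopsies of each mouse summed, which gave 5 NOR and 9 NOD mice. Of the 9, 2 members differed, *Havcr2* being higher and *Cd28* lower in NOD mice, against 8.98% of the 23387 genes tested (3.87% higher and 5.11% lower). *Havcr2* encodes TIM-3, a receptor for galectin-9 among other ligands. It measured 23.9, 29.0, 28.7, 34.9 and 22.9 CPM in the NOR mice, 48.9, 46.0, 39.7 and 44.7 in the nonprogressors and 48.3, 47.2, 58.5, 42.9 and 48.0 in the progressors. The lowest NOD mouse thus exceeded the highest NOR mouse. The means were 27.9 ± 4.82 (SD, n = 5) and 47.1 ± 5.17 CPM (SD, n = 9), a log2 fold change of 0.75 ± 0.10 (SE, adjusted p = 8.39e-05, edgeR). The difference was called with each of the 14 mice left out in turn (0.68 to 0.84), with nonprogressors alone (0.68, adjusted p = 0.00652), without the biopsy rich in ribosomal RNA (0.75, adjusted p = 9.62e-05) and with the T cell marker level in the model (0.75, adjusted p = 0.000199). In the 6-week biopsies alone it was not called (0.38 ± 0.23, adjusted p = 0.508). There the 4 NOR mice spanned 15.3 to 40.6 CPM and the 9 NOD mice of batch 1 24.0 to 49.6, so the groups overlapped. NOR mice and the nonprogressors of batch 1 also share later ages. At 10 weeks they held 27.4 to 37.3 and 39.6 to 56.2 CPM, and at 14 weeks 21.2 to 36.8 and 37.8 to 71.9. The 22-week values were 20.3 to 29.4 and 35.7 to 54.9 CPM, so these 3 ages showed no overlap. At 18 weeks the ranges overlapped (21.2 to 40.4 and 27.6 to 57.0 CPM). Batch 2 holds no NOR biopsy, and its 6 nonprogressors at 14 weeks held 22.5 to 36.2 CPM, within the NOR range of batch 1 at that age. The separation of the strains was thus seen within batch 1 alone.

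*Cd28*, the primary costimulatory receptor, went the other way. It measured 2.22, 2.33, 2.88, 1.97 and 2.34 CPM in the NOR mice, 1.60, 1.43, 1.95 and 1.20 in the nonprogressors and 2.12, 1.95, 1.26, 1.53 and 1.86 in the progressors. Of the 9 NOD mice, 8 lay below every NOR mouse. The log2 fold change was −0.52 ± 0.14 (SE, adjusted p = 0.034, edgeR), and it was called in only 6 of the 14 fits that left out 1 mouse. The call was lost without NOR mouse 1, 2, 3 or 5, without nonprogressor 1 or 2 and without progressor 3 or 4 (adjusted p up to 0.109). It was also lost with every biopsy entered separately (adjusted p = 0.086) and with nonprogressors alone (0.0509), and at 6 weeks the value was 0.068 ± 0.26 (adjusted p = 0.939). The high NOR values came mostly from 10 weeks of age, when the 5 NOR biopsies held 2.90 to 4.58 CPM and the 4 of nonprogressors 0.761 to 2.42.

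No T cell marker of 10 was called between the strains, and the summed level of these markers ran from 11.5 to 17.0 CPM in NOR and from 10.4 to 17.4 CPM in NOD mice. *Cd4*, the coreceptor of helper T cells, was lower in NOD mice, by a log2 fold change of −1.13 ± 0.28 (SE, adjusted p = 0.0185, edgeR), and 3 of 6 macrophage markers (*Csf1r*, *C1qa* and *C1qb*) were lower too. Their part in the *Havcr2* and *Cd28* results was not tested. In bulk tissue, more cells of a type and more transcript per cell cannot be told apart.

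**Figure D2:**
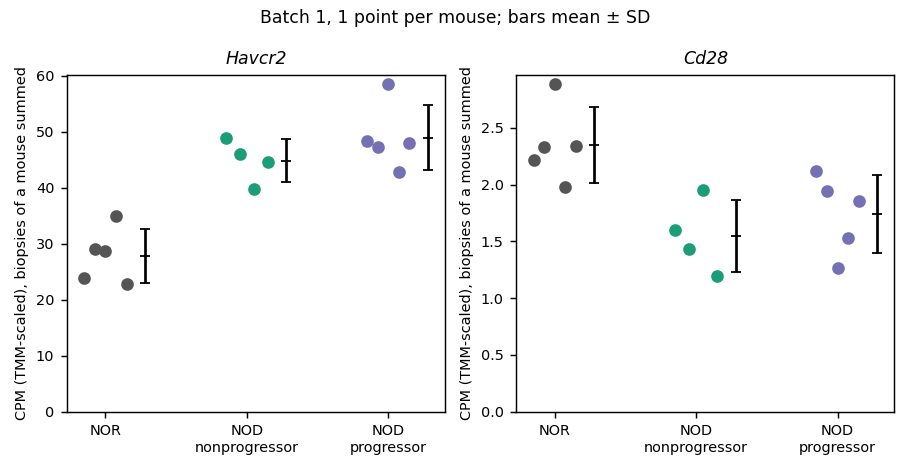
CPM (y axis, linear, from 0) of *Havcr2* and *Cd28* in each mouse of batch 1 with its biopsies summed, by group (x axis); bars are means ± SD. The 9 NOD mice lie above all 5 NOR mice for *Havcr2*, and 8 of 9 lie below them for *Cd28*.

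The other 7 members did not pass the test between strains. *Icos* had a log2 fold change of 0.42 ± 0.22 and *Ctla4* one of 0.46 ± 0.32 (adjusted p = 0.265 and 0.439). Both rested on 1 control animal: without NOR mouse 4, which had 1.502 CPM of *Icos* against 0.565 to 0.855 in the other 4, the values became 0.75 and 1.03 and were called (adjusted p = 0.0101 and 0.0204). The 18-week biopsy of that mouse held 6.02 CPM of *Icos* and 3.54 CPM of *Ctla4*, together with 49.7 CPM of summed T cell markers, each the highest of the NOR biopsies. *Lag3*, an inhibitory receptor for MHC class II, had −0.34 ± 0.18 (adjusted p = 0.264) and was called without nonprogressor 3 (−0.48, adjusted p = 0.0235). The remaining values were −0.37 ± 0.21 for *Tigit*, 0.05 ± 0.20 for *Pdcd1*, 0.11 ± 0.17 for *Cd274* and −0.24 ± 0.28 for *Pdcd1lg2*. Of 31 other costimulation and checkpoint genes tested, 1 rose and 2 fell in NOD mice, against 3.87% and 5.11% of all genes tested. *Lgals9*, which encodes galectin-9, rose by 0.22 ± 0.05, while the CD28 and CTLA4 ligand gene *Cd86* fell by 0.36 and the ICOS ligand gene *Icosl* by 0.30 on the log2 scale.

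In progressors, the members were next compared between 6 weeks and the 4 biopsies from −5 to onset, with batch in the model. Of the 9, 6 members rose and none fell, against 19.6% of the 21279 genes tested that rose and 19.9% that fell. *Pdcd1lg2*, *Ctla4* and *Icos* rose most, and for each the mean of a mouse's later biopsies exceeded its 6-week value in all 10 mice. *Cd274*, *Cd28* and *Havcr2* rose by less. The number that rose was 4 with no filter on low counts, 5 without the batch term, 7 with DESeq2 and 4 to 7 with 1 mouse left out (4 without progressor 2 or 6). The median log2 fold change of the 9 members was 0.62, beside 0.01 over all genes tested.

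*Pdcd1lg2* encodes PD-L2, which dendritic cells and macrophages make. At 6 weeks it measured 0.333, 0.493, 0.247, 0.507 and 0.374 CPM in progressors 1 to 5 (batch 1) and 0.311, 0.230, 0.426, 0.489 and 0.424 in progressors 6 to 10 (batch 2). At onset the same mice held 0.979, 1.48, 7.89, 1.61 and 2.69 CPM and 4.31, 7.78, 3.99, 2.25 and 3.92 CPM. The onset biopsies of both batches lay wholly above the 6-week ones. Over −5 to onset the log2 fold change was 2.32 ± 0.33 (SE, adjusted p = 1.45e-07, edgeR), with 2.01 ± 0.56 within batch 1 (adjusted p = 0.0126) and 2.63 ± 0.37 within batch 2 (adjusted p = 2.68e-06).

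*Ctla4* encodes the inhibitory receptor that activated and regulatory T cells carry. At 6 weeks it measured 0.139, 0.132, 0.141, 0.296 and 0.437 CPM in batch 1 and 0.0957, 0.0256, 0.180, 0.163 and 0.0998 CPM in batch 2, which were 1 to 8 counts per biopsy. At onset the values were 0.457, 0.401, 0.404, 0.612 and 0.797 CPM and 0.870, 0.802, 0.893, 0.855 and 1.05 CPM. The groups overlapped in batch 1 and were apart in batch 2. The log2 fold change over −5 to onset was 2.21 ± 0.35 (SE, adjusted p = 1.16e-06, edgeR), with 1.57 ± 0.35 and 2.88 ± 0.56 within the batches (adjusted p = 0.00324 and 0.000204).

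*Icos*, which marks activated T cells, measured 0.638, 0.559, 0.529, 0.550 and 1.12 CPM at 6 weeks in batch 1 and 0.407, 0.230, 0.404, 0.233 and 0.574 CPM in batch 2. By onset it had reached 1.37, 1.26, 0.526, 1.77 and 1.15 CPM and 3.37, 1.43, 1.21, 1.60 and 2.51 CPM. All batch 2 mice were above the 6-week range of their batch, whereas in batch 1 progressor 3 lay just below its own 6-week value. The log2 fold change was 1.61 ± 0.27 (SE, adjusted p = 4.57e-06, edgeR) over both batches, 2.51 ± 0.34 within batch 2 (adjusted p = 1.67e-06) and 0.86 ± 0.33 within batch 1, where it was not called (adjusted p = 0.0582).

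**Figure D3:**
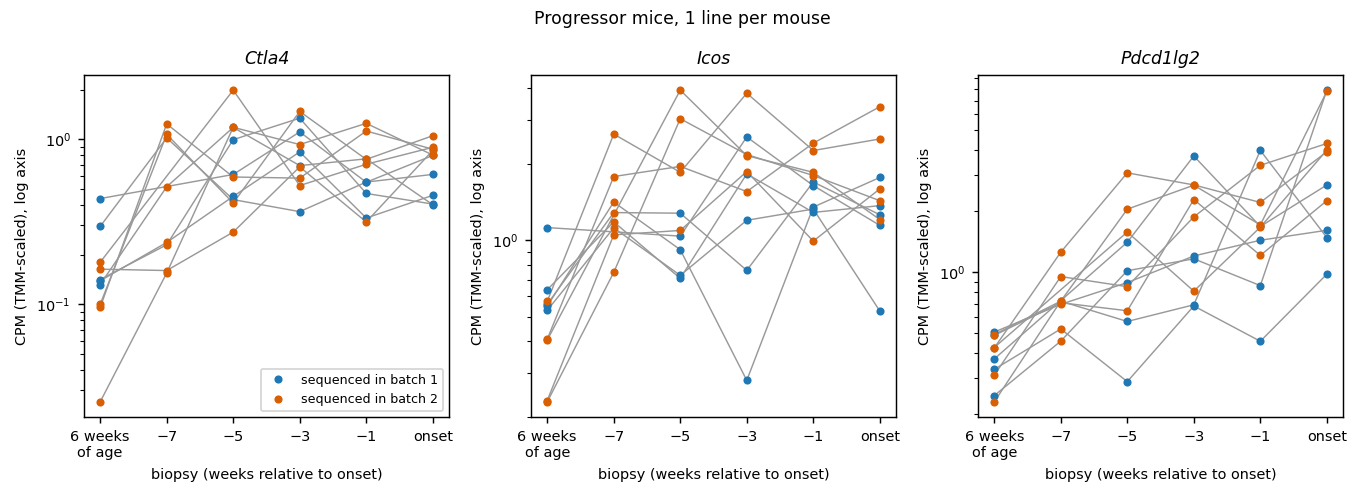
CPM (y axis, log scale) of *Ctla4*, *Icos* and *Pdcd1lg2* in the progressors by biopsy (x axis); each line joins the biopsies of 1 mouse and point colours give the sequencing batch. *Pdcd1lg2* was higher at onset than at −5 in 10 of 10 mice, *Ctla4* and *Icos* in 6 of 10.

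The smaller rises were each called in only 1 of the 2 batches. *Cd274*, which encodes PD-L1, rose by 0.63 ± 0.22 (SE, adjusted p = 0.0176, edgeR) overall and by 1.10 ± 0.36 within batch 1, where the medians went from 39.3 CPM at 6 weeks to 85.4, 83.9, 84.9 and 81.6 CPM at −5, −3, −1 and onset. Within batch 2 it had 0.23 ± 0.23 (adjusted p = 0.463), with medians of 62.3 CPM at 6 weeks and 67.9, 52.1, 78.4 and 131 CPM at −5, −3, −1 and onset. Without progressor 3 the overall call was lost (0.48, adjusted p = 0.0569). That mouse held 317 CPM of *Cd274* at onset against 57.3 to 83.5 in the other 4 mice of batch 1. *Havcr2* rose by 0.34 ± 0.14 (adjusted p = 0.0414), by 0.60 ± 0.19 within batch 1 and by 0.10 ± 0.17 within batch 2, where it was not called. In a fit blocked on mouse its call was lost (0.32, adjusted p = 0.0617), as it was when progressor 1, 2, 3, 5, 6 or 9 was left out (adjusted p up to 0.137). *Cd28* rose by 0.55 ± 0.21 (adjusted p = 0.0302) and by 0.89 ± 0.31 within batch 2, with 0.23 ± 0.27 (adjusted p = 0.535) within batch 1, and its call was lost without progressor 2, 6 or 10 (adjusted p up to 0.0923).

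**Figure D4:**
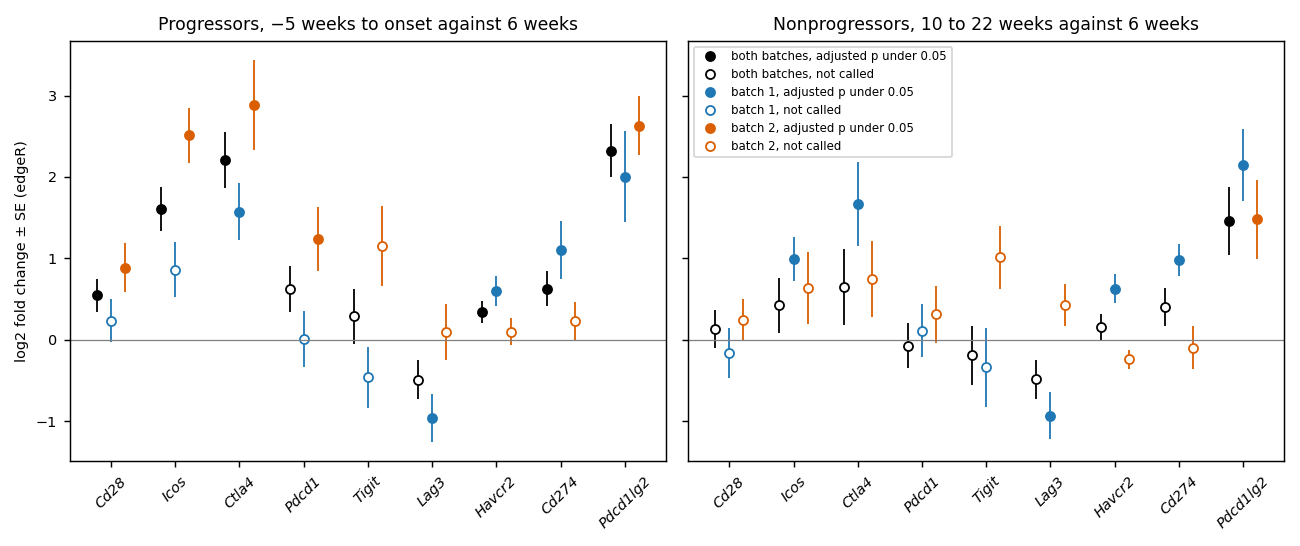
Log2 fold change ± SE (y axis, edgeR) of the 9 genes (x axis) against the 6-week biopsies, in progressors and nonprogressors, over both batches and within each; filled points had an adjusted p under 0.05. *Pdcd1lg2* was called in all 6 fits, and *Havcr2* and *Cd274* in batch 1 but not in batch 2.

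Of the inhibitory receptors, 3 were not called in progressors. *Pdcd1*, the PD-1 gene, had 0.62 ± 0.28 (adjusted p = 0.0741, edgeR). It was called in the fit blocked on mouse (0.66, adjusted p = 0.0483), without progressor 3 (0.78, adjusted p = 0.0384) or 4 (0.80, adjusted p = 0.0282), and within batch 2 (1.24 ± 0.39, adjusted p = 0.016), while batch 1 gave 0.01 ± 0.34 (adjusted p = 0.992). *Tigit* had 0.29 ± 0.33 (adjusted p = 0.524), with −0.46 ± 0.38 in batch 1 and 1.15 ± 0.49 in batch 2, neither of them called. *Lag3* had −0.49 ± 0.24 (adjusted p = 0.0935) and was called without progressor 8 (−0.62, adjusted p = 0.0237). Within batch 1 it fell by 0.96 ± 0.30 (adjusted p = 0.0208), the median going from 3.47 CPM at 6 weeks to between 1.51 and 1.84 CPM afterwards, and all 5 mice had a lower later mean. In batch 2, where the 6-week median was 1.64 CPM, the value was 0.10 ± 0.35.

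Markers of the T cell list rose alongside. Of 10, 8 were higher from −5 to onset than at 6 weeks (median log2 fold change 0.88), and their summed CPM was higher in the later mean of 9 of 10 mice. The medians went from 10.3 to 13.1 CPM in batch 1 and from 6.08 to 21.9 CPM in batch 2, the batch in which *Icos*, *Cd28*, *Pdcd1* and *Tigit* had the larger values. With the T cell marker level as a covariate, *Pdcd1lg2* (2.10 ± 0.37), *Ctla4* (1.38 ± 0.31), *Cd274* (1.01 ± 0.24), *Icos* (0.70 ± 0.18) and *Havcr2* (0.66 ± 0.14) were still called as higher (adjusted p from 8.87e-06 to 0.00173). *Cd28* was not (−0.28 ± 0.16, adjusted p = 0.141), *Pdcd1* had −0.31 ± 0.22, and *Lag3* (−1.27 ± 0.20, adjusted p = 1.4e-06) and *Tigit* (−0.90 ± 0.24, adjusted p = 0.00266) were called as lower. Of the 3 CD4 and CD8 coreceptor genes, which are outside the T cell list, 2 were tested and none was called. The later mean of *Cd4* was lower in 4 of 5 mice of batch 1 and higher in 5 of 5 of batch 2. Its batch 1 medians went from 10.92 to 5.69 CPM. The regulatory T cell markers *Foxp3* (1.04 ± 0.15) and *Il2ra* (0.68 ± 0.21) rose and *Ikzf2* did not pass. None of 6 macrophage markers or 7 dendritic cell markers was called, 4 of 5 B cell markers rose and 4 of 4 fibroblast markers fell. The covariate is a marker level measured in the same biopsies and does not count cells. The part of T cells, or of the cells of the other lists, in the members' changes was not tested.

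Among the other genes of the pathway, 30 of 33 were tested in progressors, of which 9 rose and 5 fell, with a median log2 fold change of 0.08. Over all genes tested, 19.6% rose and 19.9% fell. The rising genes included the tumor necrosis factor receptors *Tnfrsf9* (4-1BB, 1.33 ± 0.28), *Cd27* (0.60 ± 0.16) and *Tnfrsf4* (OX40, 0.54 ± 0.16), all costimulatory, and *Cd200r1* (0.53 ± 0.10). Of the ligands, *Cd80* fell by 0.99 ± 0.17, the galectin-9 gene *Lgals9* by 0.82 ± 0.13, the TIGIT-family ligand gene *Nectin3* by 1.22 ± 0.14 and the GITR ligand gene *Tnfsf18* by 1.03 ± 0.35. *Ctla4* thus rose while *Cd80* fell. The other ligand gene of CTLA4, *Cd86*, is not described here for progressors, so nothing follows for the ligands together.

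The biopsies before −5 and the last step before onset placed these changes in time. At −7, 7 weeks before onset, *Ctla4* (1.73 ± 0.43, adjusted p = 0.00458) and *Icos* (1.14 ± 0.35, adjusted p = 0.0214) were already above 6 weeks, against 12.5% of genes called in either direction (5.91% higher and 6.64% lower). In the 8 biopsies of −7, *Ctla4* ran from 0.155 to 1.24 CPM with a median of 0.376 and *Icos* from 0.747 to 2.63 CPM with a median of 1.24. *Cd28* had 0.73 ± 0.28 (adjusted p = 0.0711) and *Pdcd1lg2* 0.74 ± 0.40 (adjusted p = 0.228). Within batch 2, the only batch with −7 biopsies, *Cd28* was called too (1.01 ± 0.34, adjusted p = 0.0341). The −7 biopsies of progressors 1 to 4 come from mice whose other biopsies were all in batch 1. Within batch 2 they were therefore set against 6-week biopsies of other mice. Blocking on mouse, 883 rather than 2670 genes were called, *Ctla4* and *Icos* among them (adjusted p = 0.0308 and 0.0499).

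From −5 to onset *Pdcd1lg2* alone of the 9 rose, against 1.77% of genes called in either direction (0.827% higher and 0.945% lower). Its values at −5 were 0.289, 0.573, 1.02, 0.890 and 1.41 CPM in batch 1 and 0.850, 2.05, 1.58, 0.647 and 3.09 CPM in batch 2, below the onset value of the same mouse each time. The log2 fold change was 1.57 ± 0.34 (SE, adjusted p = 0.0184, edgeR), with 1.82 ± 0.60 (adjusted p = 0.141) within batch 1 and 1.42 ± 0.38 (adjusted p = 0.0167) within batch 2. The call was lost without progressor 3, 8 or 9 (adjusted p up to 0.0689) and without the batch term (0.0501). *Cd28* had −0.81 ± 0.25 (adjusted p = 0.0713), with lower values at onset in 8 of 10 mice, and was called without progressor 10 (−0.86, adjusted p = 0.0417). *Cd274* had 0.51 ± 0.26 (adjusted p = 0.287) and within batch 2 rose by 0.96 ± 0.29 (adjusted p = 0.0344), where it was higher at onset in 5 of 5 mice.

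Nonprogressors were compared with themselves at 6 weeks in the same way. *Pdcd1lg2* was again the member called, with a log2 fold change of 1.45 ± 0.42 (SE, adjusted p = 0.0118, edgeR), against 24.1% of 21138 genes called in either direction and 9.88% that rose. Within batch 1 it measured 0.155 to 0.487 CPM in the 4 mice at 6 weeks, 0.394 to 0.458 at 10 weeks, 1.51 to 3.18 at 14 weeks, 1.36 to 2.18 at 18 weeks and 0.224 to 3.22 at 22 weeks. The 10-week biopsies were thus still within the 6-week range and the 14- and 18-week ones above it. Within-batch values were 2.15 ± 0.45 and 1.48 ± 0.49, both called, and the overall call was lost without nonprogressor 1 (1.27, adjusted p = 0.0923).

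In nonprogressors, 5 more members were called within batch 1, where 2712 of 19715 genes were called in either direction. None of these 5 was called over both batches or within batch 2. There 6710 of 19665 genes were called, with 14 weeks as the only later age. *Ctla4* (1.67 ± 0.51), *Icos* (1.00 ± 0.27), *Cd274* (0.98 ± 0.19) and *Havcr2* (0.63 ± 0.18) rose and *Lag3* fell by 0.93 ± 0.29 (adjusted p from 0.0049 to 0.0403). Within batch 2 the values were 0.75, 0.63, −0.10, −0.24 and 0.43, and over both batches 0.65 ± 0.46, 0.42 ± 0.33, 0.40 ± 0.24, 0.16 ± 0.16 and −0.49 ± 0.24. Summed T cell markers were higher in the later mean of all 10 nonprogressors with both times, the medians going from 8.60 to 13.4 CPM in batch 1 and from 7.86 to 15.45 CPM in batch 2. Of single markers over both batches, 1 of 10 T cell and 2 of 5 B cell markers rose, and 4 of 4 fibroblast and 2 of 7 dendritic cell markers fell. With the T cell marker level as a covariate *Pdcd1lg2* was still called (1.20 ± 0.43, adjusted p = 0.0446), and *Lag3* was called as lower (−0.81 ± 0.23, adjusted p = 0.0122). Only 14 weeks was sequenced in both batches after 6 weeks. There *Havcr2* ran from 37.8 to 71.9 CPM in the 4 mice of batch 1 and from 22.5 to 36.2 CPM in the 6 of batch 2, without overlap, although the 6-week medians were 31.8 and 30.5 CPM. *Ctla4* and *Icos* peaked at 14 weeks in batch 1, with medians of 1.15 and 2.18 CPM against 0.168 and 0.597 CPM at 6 weeks. Without nonprogressor 6, *Lag3* was called over both batches (−0.60, adjusted p = 0.043).

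In NOR mice no member was called between 10 to 22 weeks and 6 weeks, where 0.0357% of 19628 genes were called. *Pdcd1lg2* had the smallest p, with 1.24 ± 0.40 (unadjusted p = 0.00559, adjusted p = 0.51, edgeR). It measured 0.365 to 0.904 CPM in 4 mice at 6 weeks, 0.392 to 0.650 at 10 weeks, 0.415 to 1.41 at 14 weeks, 1.68 to 7.22 at 18 weeks and 1.99 to 5.54 at 22 weeks. The 18- and 22-week NOR biopsies thus all exceeded the 6-week ones. *Ctla4* had 1.51 ± 0.69 (unadjusted p = 0.041, adjusted p = 0.716), and these 2 members were the ones at an unadjusted p under 0.05, while DESeq2 also called 0 members. Without the biopsy rich in ribosomal RNA the values were 1.19 and 1.52, and *Ctla4* had 0.55 without NOR mouse 4 and 2.47 without NOR mouse 2.

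No member was called between progressors and nonprogressors. At 6 weeks 0 of 8 members tested and 0 of 19082 genes were called by edgeR, with 985 genes and no member at an unadjusted p under 0.05. *Ctla4* did not pass the filter on low counts there and was not tested. Within batch 2 alone, where all 9 were tested, 2 members had an unadjusted p under 0.05 and 0 were called. After 6 weeks 0 of 9 were called, against 0.0132% of 22696 genes. The later biopsies were dated by time from onset in progressors and by age in nonprogressors, so they were not matched for age. Those of nonprogressors in batch 2 were all of 14 weeks of age. Differences between the later biopsies, or between the changes after 6 weeks, therefore cannot be told apart from differences in age. *Cd274* had 0.57 ± 0.16 (unadjusted p = 0.00212, adjusted p = 0.356), *Havcr2* 0.32 ± 0.10 (unadjusted p = 0.00361, adjusted p = 0.404) and *Cd28* 0.38 ± 0.13 (unadjusted p = 0.00922, adjusted p = 0.47), each higher in progressors. Both DESeq2 fits also called 0 members. The change after 6 weeks was set against that of nonprogressors in an interaction term, for which edgeR called 0 of 22722 genes (1531 at an unadjusted p under 0.05) and DESeq2 11, none of them a member. There *Ctla4* had 1.34 ± 0.51 (unadjusted p = 0.01, adjusted p = 0.62) and *Icos* 0.96 ± 0.39 (unadjusted p = 0.0172, adjusted p = 0.651). Batch 1 alone gave −0.11 for *Ctla4* and −0.14 for *Icos*, and batch 2 alone 2.14 and 1.89. The 6-week baselines of batch 2 already lay lower in progressors. There *Ctla4* ran from 0.0256 to 0.180 CPM in progressors and from 0.108 to 0.809 CPM in nonprogressors. *Icos* ran from 0.230 to 0.574 and from 0.395 to 2.36 CPM. For the change with age in nonprogressors against that in NOR mice, edgeR called 0 of 20647 genes (1250 at an unadjusted p under 0.05) and DESeq2 called 9, and no member had an unadjusted p under 0.05.

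Across the 120 biopsies, after the mean of each group, time and batch was removed, the members split by the genes they resembled. These correlations are over biopsies that share mice, and they are descriptions without a test. They include the NOR biopsy rich in ribosomal RNA, which had 0 counts of *Icos*, *Ctla4*, *Pdcd1* and *Tigit*. Its weight in them was not tested. Among 15910 genes, *Icos* was most like *Cd6* (Pearson r = 0.82) and *Cd3e* (0.77), *Ctla4* most like *Icos* (0.74) and *Cd3e* (0.68), and *Pdcd1* most like *Traf1* (0.74). The rank correlations (Spearman) of these pairs were lower, at 0.71, 0.61, 0.61, 0.51 and 0.61. *Tigit* was most like *Ptprcap* (0.74), *Cd28* most like *Ikzf3* (0.79) and *Lag3* most like *Prdm1* (0.76). *Havcr2* resembled the leukocyte gene *Plek* (0.82) and *Snx7* (0.82). With markers of cell types *Havcr2* had −0.25 for *Cd3e*, 0.11 for *Csf1r*, the only macrophage marker compared, and −0.18 for *Flt3*, the only dendritic cell marker compared. Its correlations with the other markers of these cells were not computed. *Cd274* was most like *Gm36043* (0.86), followed by *Nlrc5* (0.85), the transactivator of MHC class I genes, and *H2-Q4* (0.80), an MHC class I gene. *Pdcd1lg2* had no partner as close: its nearest were *Cish* (0.53), a target of STAT5, *Chil3* (0.52) and the chemokine gene *Ccl17* (0.50). The neighbours *Cd274* and *Pdcd1lg2* had r = 0.36 with each other.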

How the data were processed

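The authors extracted total RNA from scaffold biopsies, depleted ribosomal RNA and deposited expected counts (RSEM estimates per gene, held as whole numbers and not normalized) in 1 table per sequencing batch. The submitters' processing notes name cutadapt, FastQC, STAR, RSEM and MultiQC and the build GRCm38, without versions, and the strand setting is not given in the sources used here. The tables hold 5 and 4 rows of reporter sequences, which took 2.55e-08% of the counts and were left out, and 55141 of the 55487 shared genes were matched by identifier to GENCODE M21, from which coordinates and exon lengths came.

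Counts were filtered with filterByExpr, scaled by TMM and tested with edgeR 4.0.16 in R 4.3.3 (quasi-likelihood test; genes were called at an adjusted p under 0.05 after Benjamini-Hochberg correction over every gene tested), with DESeq2 1.42.0 as an alternative. All p-values are two-sided. Batch was a term where groups span both batches. NOD and NOR mice were compared within batch 1 with the biopsies of each mouse summed. Repeated biopsies of a mouse, paired by the mouse numbers in the labels, were entered as separate samples, and the mouse as a block was an alternative. To check the pairing, the mean of each group was subtracted, after which biopsies sharing a mouse had mean correlations of −0.0156 in progressors, −0.000481 in NOR mice and 0.011 in nonprogressors over 2000 genes. All 239 pairs of biopsies compared within groups differed by more than counting error (chi-square divided by its degrees of freedom at least 12.0). The named genes are the 9 members, the genes most like each, and genes of the fixed lists that passed the test. The members and lists were chosen with earlier results of these data known. On simulated counts in which 200 genes had a log2 fold change of 1, 76.5% of these were recovered for NOD against NOR (23175 genes) and 82% for progressors from −5 to onset against 6 weeks (21006 genes). Of the genes called, 1.29% and 5.2% were false. The simulated counts had no batch or mouse effect. The changed genes were drawn from all levels, so the shares do not speak for genes as low as *Ctla4*, *Pdcd1* or *Tigit*. The 6 biopsies labelled by days after implantation entered no comparison. The T cell list holds *Cd3d*, *Cd3e*, *Cd3g*, *Cd247*, *Cd2*, *Cd5*, *Cd6*, *Lck*, *Trac* and *Trbc2*. Figures were drawn with matplotlib.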

Additional observations from a re-analysis of the deposited data

Results flagged for a closer look

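Single biopsies stood apart in 13 of 207 sets of 4 to 8 biopsies (1 gene in 1 group, time and batch) by Dixon's test at the 95% level, which chance alone passes in about 1 set in 20. Those of the ligand and of TIM-3 were as follows. *Cd274* measured 317 CPM in progressor 3 at onset against 57.3 to 83.5 in the other 4 mice of batch 1, 77.6 CPM in nonprogressor 3 at 22 weeks against 111 to 112, and 99.0 CPM in nonprogressor 5 at 6 weeks in batch 2 against 34.3 to 54.0. *Havcr2* measured 35.7 CPM in the same 22-week biopsy of nonprogressor 3 against 51.7 to 54.9, and 36.2 CPM in nonprogressor 5 at 14 weeks against 22.5 to 25.1.

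Among the receptors, *Cd28* measured 0.647 CPM in progressor 3 at onset against 1.56 to 1.89, and 1.16 CPM in progressor 7 at −7 against 2.72 to 4.14. *Icos* measured 1.12 CPM in progressor 5 at 6 weeks against 0.529 to 0.638. *Lag3* measured 6.67 CPM in progressor 8 at −5 against 0.818 to 1.52, 3.71 CPM in nonprogressor 6 at 14 weeks against 1.17 to 1.60, and 1.08 CPM in NOR mouse 2 at 22 weeks against 1.70 to 1.99. *Pdcd1* measured 0.245 CPM in NOR mouse 1 at 22 weeks against 0.555 to 0.688, and 0.261 CPM in nonprogressor 1 at 6 weeks against 0.526 to 0.578. The onset biopsy of progressor 3 is thus at once the highest for *Cd274* and the lowest for *Cd28* of its group.

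The 6 nonprogressor biopsies labelled by days after implantation, outside every comparison, held members above all 23 NOR biopsies. At 31 days this was *Tigit*, whose lower biopsy had 1.47 CPM against a NOR maximum of 1.26. At 108 days it was *Cd28* (lower biopsy 4.98 against a maximum of 4.58 CPM), *Pdcd1* (1.97 against 1.84) and *Tigit* (1.49 against 1.26).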

How the results depend on the processing

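Of the member fold changes given above, 238 of 284 values under another scaling, tool, filter, batch treatment, sample set, covariate or block kept their direction and side of the threshold, 14 lost the call, 17 gained it and 15 turned direction. Between strains, members called fell from 2 to 1 with no filter on low counts, with every biopsy separate and with nonprogressors alone, and to 0 at 6 weeks, where 403 genes were called and *Cd28* (0.068), *Tigit* (0.62), *Lag3* (0.36) and *Cd274* (−0.42) turned direction, as did *Cd274* with nonprogressors alone (−0.12). Leaving out each mouse gave 1 to 4 members, with *Pdcd1* from −0.058 to 0.29 (turning also at −0.00264 and −0.028) and *Cd274* from −0.017 to 0.19. In progressors against 6 weeks, 5317 genes were called within batch 1, *Tigit* (−0.46) turning direction there, and *Lag3* within batch 2 (0.10). With the T cell covariate *Cd28* (−0.28), *Pdcd1* (−0.31) and *Tigit* (−0.90) turned. At −7, 4077 genes were called within batch 2, and no fit within batch 1 was possible because it holds no −7 biopsy.

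In nonprogressors, members called were 3 without the batch term (9173 genes), 6 within batch 1 (2712 genes) and 2 with the T cell covariate, and 0 to 2 (2786 to 5367 genes) with 1 mouse left out. Within batch 2 *Lag3* (0.43), *Havcr2* (−0.24) and *Cd274* (−0.10) turned. From −5 to onset, members and genes called were 2 and 839 with DESeq2, 0 and 14 without the batch term, 0 and 1 within batch 1, 2 and 1973 within batch 2, 103 genes with no filter, and 0 to 2 and 10 to 1088 with 1 mouse left out (250, 153 and 196 genes without progressor 1, 3 and 6). For NOR mice with age, 7 genes became 46 with DESeq2, 12 with no filter, 12 without the biopsy rich in ribosomal RNA and 0 to 54 with 1 mouse left out. Between progressors and nonprogressors after 6 weeks, 3 genes became 79 with DESeq2 and 0 with no filter, no batch term, batch 1 alone or the covariate. DESeq2 called 9 and 11 genes for the interactions with NOR mice and nonprogressors. In these, *Ctla4* (−0.11) and *Icos* (−0.14) turned within batch 1. The cause of these changes was not tested. With the mouse as a replicate block, genes called were 2 in NOR mice and 883 at −7, and apart from *Havcr2* and *Pdcd1* in progressors it changed no call of a member named above. CPM of the total counts moved 8 of 234 group means of single genes by more than 1 SD. The counts of *Ctla4*, *Pdcd1* and *Tigit*, often under 10, limit what could be detected for them.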

Other observations

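The biopsies labelled by days after implantation carry no age, so they are given as values. The 2 biopsies of 31 days held 3.99 and 4.90 CPM of *Icos*, 1.59 and 3.84 CPM of *Ctla4* and 1.47 and 2.35 CPM of *Pdcd1*. Those of 38 days held 2.25 and 2.68, 1.07 and 1.70, and 0.697 and 1.66 CPM of the same genes, and those of 108 days 4.28 and 4.74, 2.18 and 2.65, and 1.97 and 2.51 CPM. In the dated nonprogressor biopsies of batch 1 the highest values were 2.55, 1.71 and 1.13 CPM. The T cell marker *Cd3e* ran from 4.72 to 10.4 CPM in the 6 biopsies against at most 4.28 CPM in the dated ones. For *Pdcd1lg2*, 1 biopsy of 31 days (3.6 CPM) and 1 of 108 days (3.44 CPM) lay above the dated maximum of 3.22 CPM, and the other 4 held 1.27 to 3.15 CPM. *Cd274* ran from 54.7 to 92.3 CPM and *Havcr2* from 26.8 to 43.7 CPM, within the dated ranges of 28.6 to 115 and 24.0 to 71.9 CPM.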
